A study of Mus musculus with 6 samples.

Results

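The genes described here encode the AMPA-type glutamate receptor and the proteins that travel with it: the pore-forming subunit genes Gria1, Gria2, Gria3 and Gria4, and 6 auxiliary genes, Cacng2, Cacng3, Cacng8, Cnih2, Cnih3 and Shisa9. They were listed by symbol, with earlier results of these data known, and all 10 were found among the 24419 genes of the deposited table. RNA had been sequenced from 6 libraries of sorted cells, 3 labelled control and 3 labelled cKO, taken from the cortex bordering an infarct in male mice. The middle cerebral artery had been blocked for 60 minutes and the cells were taken on day 4. Both groups carried loxP-flanked Padi4 alleles (Padi4flox/flox). The group labelled cKO also carried Slc17a7-cre and Slc32a1-cre, drivers active in glutamatergic and GABAergic neurons. All animals had the occlusion, so there is no uninjured reference, and neither the age nor whether each library came from its own animal is given in the labels. The cells had been sorted as Thy1-positive and negative for ACSA2, CD31, CD45 and O4.

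AMPA receptors are tetramers of GluA subunits, and they carry most of the fast excitatory current at synapses in the cortex. The Gria2 product sets their permeability to calcium, because its transcript is edited by the enzyme encoded by Adarb1 at a codon lining the pore. Auxiliary proteins bind around the pore, help the receptor to leave the endoplasmic reticulum and reach the synapse, and slow or speed its closing. Such receptors are of interest near an infarct because glutamate released during ischaemia acts on them.

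The libraries held 10094145 to 24056755 reads. Values are CPM that had been rescaled per library, called rescaled CPM below, and fold changes are labelled cKO minus labelled control on the log2(value + 1) scale. Where 3 values follow each other they are replicates 1, 2 and 3 of the group named. Padi4 had 0 reads in each library labelled control and 0, 3 and 12 reads in cKO replicates 1, 2 and 3. At these counts the targeted gene can neither bear out nor contradict the labels, and group names below are the labels only. The sorted cells were labelled neurons. The 16 pan-neuronal markers summed to 1932 to 7732 rescaled CPM per library, below the 11583 to 34401 of 12 oligodendrocyte markers. In bulk RNA of this kind, fewer neurons and less RNA per neuron cannot be told apart.

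Most of the 10 genes had the same low library and the same high libraries, and both carried the cKO label. Replicate 1 of the cKO group was the lowest library for 7 of the 10 genes, against 15.6% of all 14796 tested genes. Replicates 2 and 3 of the same group were the highest libraries for 5 and 4 of them, and control replicate 2 for the remaining 1, Gria4. None of the 10, and no other tested gene, passed an adjusted p under 0.05 in limma, and the lower-than-control and higher-than-control counts at an unadjusted p under 0.05 were 76 and 50 genes, 0 of them among the 10.

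Promoter windows are shown for the gene with the highest level per kb of exon and for both cornichon genes. These are the 250 bases before the start in RefSeq (GRCm38.p6), and 7 of the 10 genes matched that table. The window of Gria2 is chr3:80802836-80803085 on the minus strand, that of Cnih2 chr19:5098522-5098771 on the minus strand and that of Cnih3 chr1:181352378-181352627 on the plus strand. Capitals mark matches, on either strand, to the GC box GGGCGG and the E box CACGTG.
Gria2: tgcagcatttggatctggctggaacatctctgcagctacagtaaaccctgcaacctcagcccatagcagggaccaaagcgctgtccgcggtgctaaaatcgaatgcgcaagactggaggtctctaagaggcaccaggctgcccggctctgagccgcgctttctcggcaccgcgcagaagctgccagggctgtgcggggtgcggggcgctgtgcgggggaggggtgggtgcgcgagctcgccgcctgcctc
Cnih2: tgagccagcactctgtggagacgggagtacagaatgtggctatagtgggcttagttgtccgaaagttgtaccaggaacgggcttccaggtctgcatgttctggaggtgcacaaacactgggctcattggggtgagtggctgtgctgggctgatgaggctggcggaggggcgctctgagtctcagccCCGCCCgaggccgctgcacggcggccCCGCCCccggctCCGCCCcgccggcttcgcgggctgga
Cnih3: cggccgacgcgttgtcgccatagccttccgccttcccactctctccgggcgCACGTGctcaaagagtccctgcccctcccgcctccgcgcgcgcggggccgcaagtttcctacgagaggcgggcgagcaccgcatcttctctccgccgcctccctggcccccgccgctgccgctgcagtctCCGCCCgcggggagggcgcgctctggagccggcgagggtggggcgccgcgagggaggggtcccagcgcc
The GC box, a binding motif of the SP1 family, was matched in the windows of 2 of the 7 genes, Cnih2 and Cnih3, against 32.7% of 32851 windows of the same length. The E box was matched in that of 1, Cnih3, against 6.02% of all windows. The CRE motif TGACGTCA, bound by CREB, and the NRF-1 motif were matched in 0 of the 7, against 1.55% and 3.74%. The motifs do not overlap in the windows shown, and a match is a description of the letters, not of a bound site.

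Gria1, on chromosome 11 from 57011387 to 57330244 in mm10, encodes GluA1, the subunit known for its insertion into synapses during long-term potentiation. Its values were 73.9, 108 and 114 rescaled CPM in the control libraries and 55.9, 328 and 243 in the cKO libraries. One library labelled cKO lay below every control library and the other two lay above, so the groups overlapped. The group means were 98.6 ± 21.6 and 209 ± 139 (SD, n = 3 each), and the log2 fold change was 0.76 (SE 0.57, 95% interval -0.50 to 2.03), with a limma adjusted p of 0.9996. That layout, with cKO replicate 1 below and cKO replicates 2 and 3 above every control library, was also found in Cnih3 and in 4.51% of all tested genes. Without cKO replicate 1 the log2 fold change of Gria1 was 1.53 (limma unadjusted p = 0.00065, adjusted p = 0.606), and without cKO replicate 2 it was 0.27. Small unadjusted p-values became more common among all tested genes when cKO replicate 1 was left out. Under 0.05 in limma were then 443 genes higher and 546 lower, against 50 and 76 with all 6 libraries.

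Gria2, on chromosome 3 from 80681450 to 80802835, encodes GluA2, the subunit whose edited form keeps calcium out. Gria2 stood at 461, 722 and 484 rescaled CPM in the control libraries and at 421, 929 and 701 in the cKO libraries. Here control replicate 2 lay above cKO replicate 3, and the groups overlapped. Its log2 fold change was 0.25 (SE 0.39, 95% interval -0.60 to 1.11). Gria3, on chromosome X from 41400854 to 41678601, encodes GluA3, which pairs with GluA2 in many cortical receptors. Gria3 stood at 145, 240.1 and 141 rescaled CPM in the control libraries and at 125, 321 and 187 in the cKO libraries. Its libraries fell in almost the same order as those of Gria2, and its log2 fold change was 0.20 (SE 0.39).

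Gria4, on chromosome 9 from 4417896 to 4796234, encodes GluA4, a subunit with fast kinetics that is prominent in some interneurons. The values of Gria4 were 104, 165 and 112 rescaled CPM in the control libraries and 103, 137 and 126 in the cKO libraries. It varied least of the 10 genes: its highest library was 1.61 times its lowest, against 5.86 times for Gria1, 2.21 for Gria2 and 2.57 for Gria3. Its group means were 127 ± 33.3 and 122 ± 17.4 (SD, n = 3 each), a log2 fold change of -0.04 (SE 0.31, 95% interval -0.73 to 0.64).

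**Figure D1:**
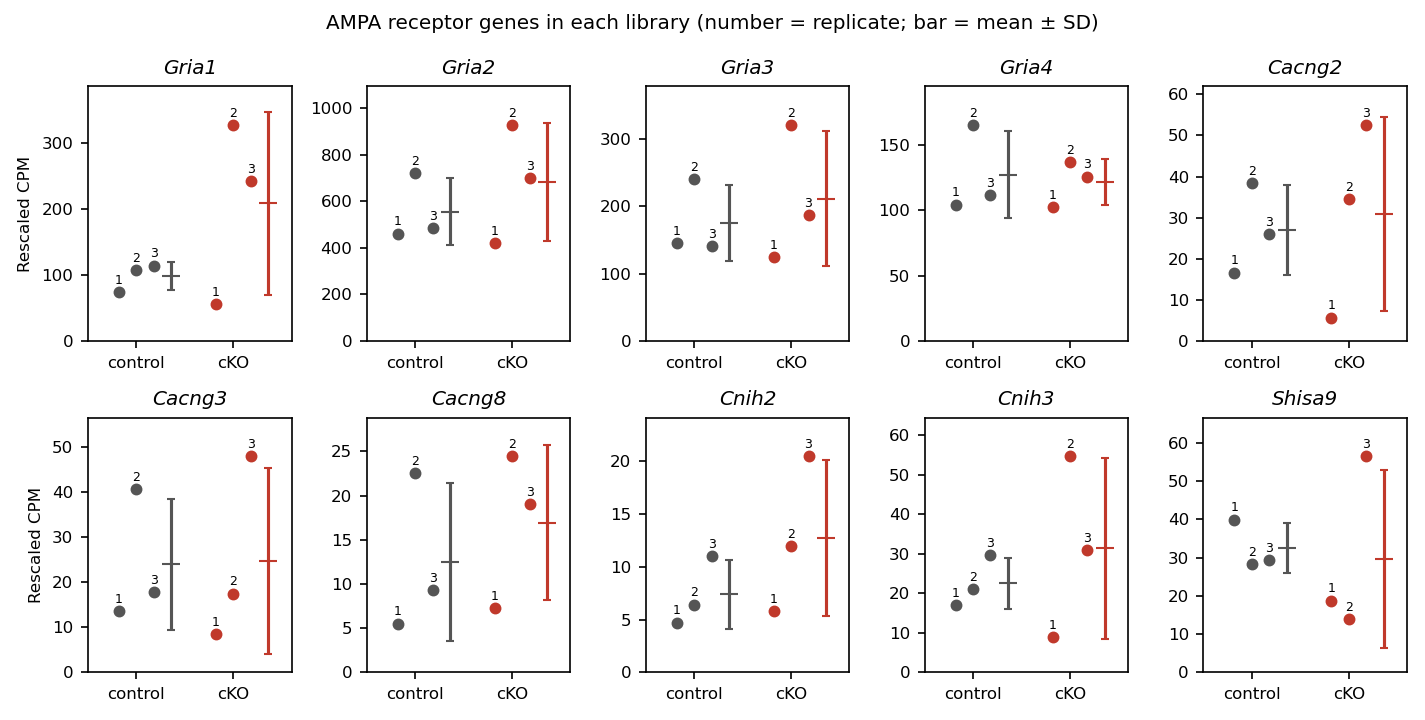
Rescaled CPM of each AMPA receptor gene (vertical axes, each on its own scale from 0) in the 6 libraries, by label, with the replicate number at each point and the mean ± SD of 3 libraries beside it. The groups overlap in every panel, and cKO replicate 1 is the lowest library in 7 of the 10.

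The transmembrane AMPA receptor regulatory proteins, or TARPs, are membrane proteins that carry the receptor to the surface and anchor it to PSD-95. Cacng2 encodes stargazin, the founding TARP. Stargazin transcripts stood at 16.6, 38.3 and 26.0 rescaled CPM in the control libraries and at 5.66, 34.4 and 52.6 in the cKO libraries. Its highest library was 9.29 times its lowest, the widest range of the 10 genes, and both extremes were labelled cKO. Cacng3, a TARP of cortical principal neurons, was measured at 13.6, 40.5 and 17.7 in the control libraries and at 8.54, 17.5 and 47.9 in the cKO libraries. Cacng8, best known from the hippocampus, was measured at 5.53, 22.6 and 9.28 in the control libraries and at 7.29, 24.4 and 19.1 in the cKO libraries. Control replicate 2 was among the 2 highest libraries for each of the 3 TARP genes, and control replicate 1 or cKO replicate 1 was the lowest. The log2 fold changes were -0.19 (SE 0.72) for Cacng2, -0.13 (SE 0.65) for Cacng3 and 0.47 (SE 0.66) for Cacng8. For Cacng2 and Cacng3 the unlogged group means ran the other way. They were 27.0 ± 10.9 in control and 30.9 ± 23.7 in cKO for Cacng2, and 24.0 ± 14.5 and 24.6 ± 20.6 for Cacng3 (SD, n = 3 each).

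Cornichons are export chaperones of the endoplasmic reticulum that also stay with surface receptors and slow their closing. Cnih2 was measured at 4.70, 6.40 and 11.0 rescaled CPM in the control libraries and at 5.81, 11.9 and 20.4 in the cKO libraries. It was the lowest of the 10 genes in reads: the 51 reads of control replicate 1 have an exact Poisson 95% interval of 38.0 to 67.1. Cnih3 was measured at 17.0, 21.0 and 29.6 in the control libraries and at 8.88, 54.6 and 30.9 in the cKO libraries. The log2 fold changes were 0.63 (SE 0.63) for Cnih2 and 0.18 (SE 0.62) for Cnih3. Shisa9 encodes CKAMP44, which slows the recovery of the receptor from desensitization. Shisa9 stood at 39.9, 28.3 and 29.2 in the control libraries and at 18.7, 13.8 and 56.4 in the cKO libraries. Shisa9 was lowest in cKO replicate 2, the highest library for 5 other genes of the 10. Centred on the 6 libraries, its log2 level there was -0.97. Cacng3 was also negative there, at -0.22, and the other 8 genes were positive. In control replicate 1 only Shisa9 was positive, at 0.49. Its log2 fold change was -0.37 (SE 0.53, 95% interval -1.55 to 0.80).

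Levels can be ranked between genes only per length, here rescaled CPM per kb of merged exons. Gria2 led at 39.8 ± 12.7 (SD, n = 6 libraries) and was above the next gene, Gria1 at 25.4 ± 17.8, in 6 of 6 libraries. Gria1 was above Gria4, at 19.7 ± 3.80, in 3 of 6, so these neighbours did not differ beyond their spread. Gria3 followed at 19.6 ± 7.63. Every pore gene was above the auxiliary genes on average, and Gria3 was above Cnih3, the first of these at 9.81 ± 5.75, in 6 of 6 libraries. Cacng3, Cnih2, Cacng8, Shisa9 and Cacng2 followed, from 8.75 ± 5.74 down to 5.25 ± 3.01, and no neighbouring pair among the 6 auxiliary genes kept its order in more than 4 of 6 libraries. The order within the pore genes rests on the length used. Per kb of the longest coding transcript, Gria3 came directly after Gria2 at 37.2 ± 14.5 and Gria1 next at 27.7 ± 19.4, because the merged exons of Gria3 span 9859 bases against 5192 in that transcript.

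The make-up of the pore transcripts was then compared, since a share within a library does not change with the scaling of that library. Per kb of exon, Gria2 made up 40.6%, 40.4% and 37.9% of the Gria1 to Gria4 sum in the control libraries and 41.5%, 35.5% and 36.3% in the cKO libraries. The cKO group held both the highest and the lowest share. The means were 39.7% ± 1.48 and 37.8% ± 3.25 (SD, n = 3 each), and the two-sided exact permutation p was 0.4, where the smallest that 3 against 3 allows is 0.1. Gria1 made up 16.7%, 15.5% and 23.1% in the control libraries and 14.2%, 32.3% and 32.4% in the cKO libraries, again with the cKO libraries on both sides of the controls. Its exact permutation p was also 0.4, for a test chosen after the values were seen. Gria4 had its smallest shares, 12.9% and 16.1%, in cKO replicates 2 and 3, against 21.6% to 24.9% in the other 4 libraries. In those 2 libraries Gria1 was measured at 0.353 and 0.347 times Gria2 in rescaled CPM, against 0.133 to 0.236 in the other 4. Oligodendrocyte precursor markers also had their lowest sums there, 2184.5 and 2017 rescaled CPM, against 2368 to 3558. Astrocyte markers did not set these libraries apart, at 1961 and 867 against 614 to 1182. What part other cells have in these shares was not tested.

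**Figure D2:**
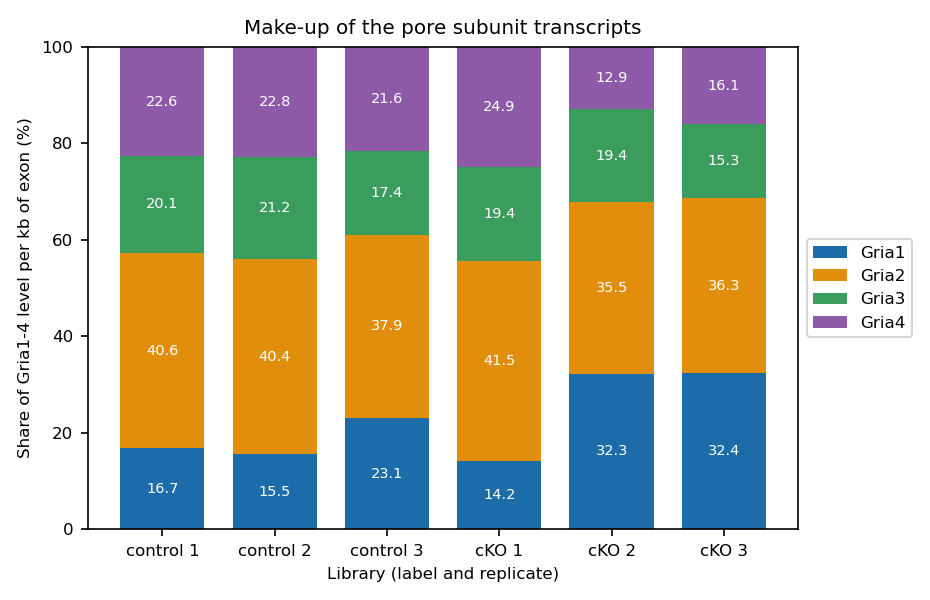
Share of each pore gene in the Gria1 to Gria4 sum, in percent per kb of merged exon (vertical axis), as 1 stacked bar per library. The Gria2 share stays between 35.5% and 41.5%, while the Gria1 share runs from 14.2% in cKO replicate 1 to 32.4% in cKO replicate 3.

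Summed per kb of exon, the 6 auxiliary genes stood at 0.376, 0.426 and 0.480 times the 4 pore genes in the control libraries and at 0.280, 0.322 and 0.578 in the cKO libraries. The cKO libraries again spanned a wider range than the controls on both sides.

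The libraries were also ordered by the level of neuronal markers. The mean log2 level of the 10 genes, centred on the 6 libraries, was -0.46, 0.27 and -0.08 in the control libraries and -0.87, 0.48 and 0.66 in the cKO libraries. That of the 16 pan-neuronal markers was -0.35, 0.26 and -0.15 in the control libraries and -0.98, 0.30 and 0.92 in the cKO libraries. Both ran in the same order of libraries, from cKO replicate 1 at the bottom to cKO replicate 3 at the top. The 12 glutamatergic markers summed to 980.0 to 2058 rescaled CPM in the control and 536 to 3507 in the cKO libraries, and the 13 GABAergic markers to 499 to 710 and 324 to 1062 (1 of these, Adarb2, is also on the editing list). Astrocyte markers summed to 614 to 1182 and 867 to 1961, highest in cKO replicate 2, and oligodendrocyte precursor markers to 2368 to 2948 and 2017 to 3558, highest in cKO replicate 1. Mature oligodendrocyte markers summed to 22429.5 to 28474 in the control and 11583 to 34401 in the cKO libraries. These sums ran in the reverse order of the pan-neuronal markers and of the 10 genes over all 6 libraries. The highest sum was in cKO replicate 1 and the lowest in cKO replicate 3. Endothelial markers summed to 80.0 to 174 and 127 to 175, with Cldn5 at 0 in at least 1 library. Markers of pericytes, smooth muscle and fibroblasts summed to 486 to 4985 and 222 to 2952, with the lowest sum in cKO replicate 2. Microglial and macrophage markers were low, at 52.1 to 74.2 and 39.7 to 81.6, with Tmem119, C1qa, C1qc, Ptprc and Trem2 at 0 in at least 1 library. What part these cells have in the levels of the receptor genes was not tested.

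**Figure D3:**
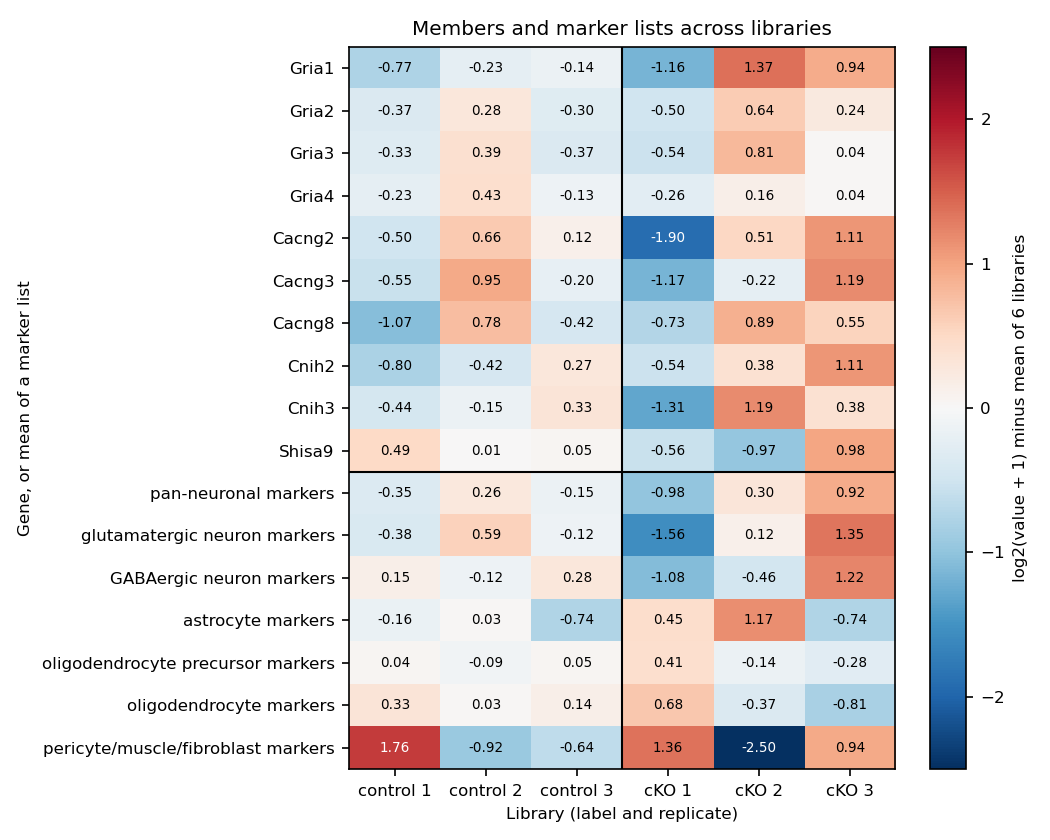
Log2(value + 1) of each receptor gene, and the mean of each marker list, centred on the 6 libraries (colour and printed number), with libraries in columns. The cKO replicate 1 column is negative for all 10 genes and for the 3 neuronal lists, and the cKO replicate 3 column is positive for all of these.

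When libraries were rescaled to equal pan-neuronal marker levels, the range over libraries narrowed for 6 of the 10 genes and widened for 4. The range of Cacng2 went from 9.29 to 2.85 times between lowest and highest library, and that of Gria1 from 5.86 to 2.97. That of Gria4 went the other way, from 1.61 to 3.06. On this scale Gria1 was at 94.3, 89.7 and 127 in the control libraries and at 111, 266 and 128 in the cKO libraries, so that cKO replicate 2 alone stood above the rest. Control replicate 2 and cKO replicate 2 had near-equal pan-neuronal mean log2 levels before this rescaling, 7.34 and 7.38, with Gria1 at 108 and 328 rescaled CPM. These are single libraries, and their Gria4 levels were 165 and 137. Their mean log2 levels of other markers were less alike. They were 6.45 and 5.98 for glutamatergic, 4.17 and 3.83 for GABAergic and 4.92 and 6.05 for astrocyte markers. Markers of pericytes, smooth muscle and fibroblasts were at 5.09 and 3.51, and oligodendrocyte precursor markers were near-equal at 7.39 and 7.34. What part these differences have in the Gria1 values was not tested. The log2 fold change of Gria1 on the rescaled data was 0.60 (SE 0.64). Of the 10 genes 6 were positive, against 35.2% of all tested genes. The median over the 10 genes was 0.03, where the median of all tested genes moved from -0.02 to -0.16.

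In the comparison of the groups, 6 of the 10 genes had a positive log2 fold change and 4 a negative one, against 48% of all tested genes above 0. Their median was 0.19, against -0.02 over all tested genes. Limma called 0 of the 10, against 0% of all genes in either direction. At an unadjusted p under 0.05 limma had 0 of the 10, against 0.338% of all tested genes higher and 0.514% lower. With edgeR 8 of the 10 were positive, against 51.4% of all tested genes, and 0 had an unadjusted p under 0.05, against 0.277% higher and 0.216% lower. With DESeq2 7 were positive, against 49.8%, and 0 had an unadjusted p under 0.05, against 0.656% higher and 0.527% lower. DESeq2 called 0 of the 10, against 0.00676% of all tested genes lower (1 gene) and 0% higher. In 0 of the 10 did every library labelled cKO lie above every control library, against 2.45% of all tested genes, and in 0 below, against 2.26%. The directions changed when single libraries were left out. Without cKO replicate 1, 9 of the 10 genes were positive with a median of 0.64, against 48.2% and a median of -0.03 over all tested genes, and only Shisa9 was negative. Without cKO replicate 2, 4 of 10 were positive with a median of -0.03, against 54% of all tested genes. Without control replicate 1 the count was 5 and the median 0.03, and without control replicate 2 they were 9 and 0.38.

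**Figure D4:**
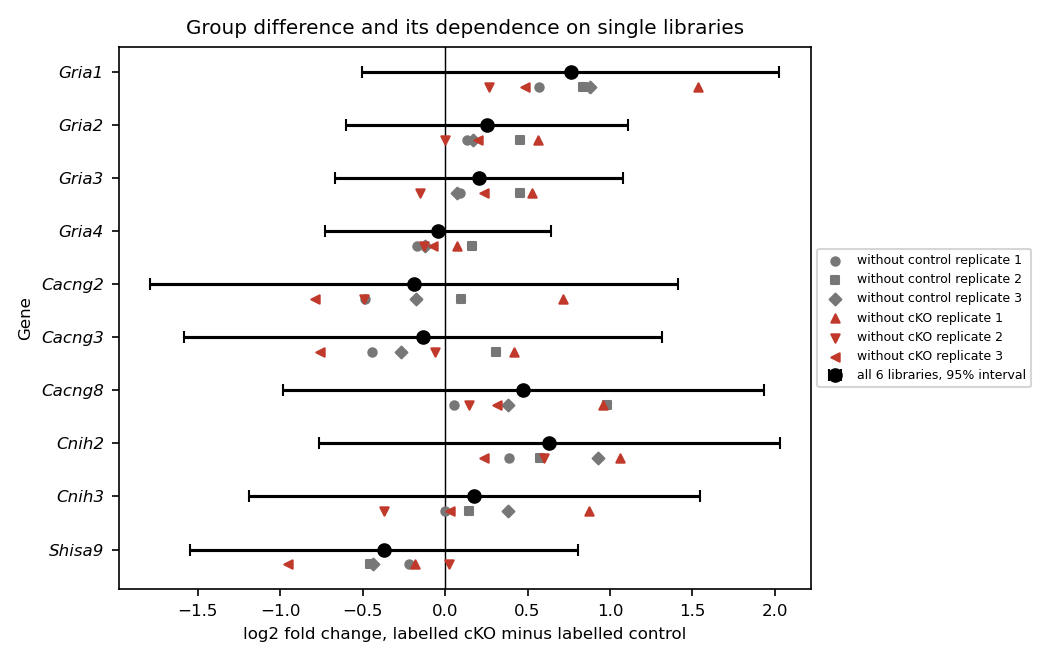
Log2 fold change of each gene with its limma 95% interval over all 6 libraries (black), and the value after leaving out each library in turn (grey for control, red for cKO, symbols in the key). All 10 intervals cross 0, and the values without cKO replicate 1 lie furthest to the right for Gria1, Gria2, Gria3, Cacng2, Cacng3, Cnih2 and Cnih3.

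Other proteins of the receptor complex were read from a list of 23 genes, all tested, of which 15 were above and 8 below 0 and 0 were called, with a median log2 fold change of 0.17. Without cKO replicate 3, where the median of all tested genes was -0.06, 9 of the 23 were above 0. Scaled to the pan-neuronal markers, where 35.2% of all tested genes were above 0 in place of 48%, 13 were. Cacng5, an atypical TARP, was measured at 59.3, 25.3 and 86.9 rescaled CPM in the control libraries and at 83.0, 0.202 and 21.2 in the cKO libraries. The lowest library by far was cKO replicate 2, and the log2 fold change was -1.99 (SE 1.23). Shisa6, which holds receptors at the synapse, was at 26.3 ± 8.21 and 15.7 ± 12.8 (log2 fold change -0.97, SE 0.62). Cnih1, the widely expressed cornichon, was at 48.0 ± 25.6 and 62.7 ± 21.2. Prrt2, a proline-rich membrane protein, was at 104 ± 62.9 and 198 ± 140.0, in each case as mean ± SD of 3 libraries.

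Scaffold and trafficking genes had 20 tested members, of which 12 were above and 8 below 0 and 0 were called, with a median of 0.07. Without cKO replicate 2, 8 of the 20 were above 0, against 54% of all tested genes. Scaled to the pan-neuronal markers 6 were, against 35.2% of all tested genes. Nptx1, a secreted pentraxin that clusters AMPA receptors, was at 139 ± 62.7 and 294 ± 222 (log2 fold change 0.85, SE 0.57). Its value in cKO replicate 3, 532, was more than any other library. Arc, an activity-induced gene that promotes removal of the receptor from the surface, was at 263 ± 139 and 169 ± 50.2 (log2 fold change -0.50, SE 0.46). Pick1, which binds the tail of GluA2, was at 27.3 ± 7.84 and 43.4 ± 24.8, and Myo6, a motor of endocytosis, was at 351 ± 38.5 and 282 ± 173.

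Kinase, phosphatase and RNA editing genes had 15 tested members, with 13 above and 2 below 0 and 0 called, and a median of 0.13. Without cKO replicate 3, where the median of all tested genes was -0.06, 6 of the 15 were above 0. Scaled to the pan-neuronal markers 7 were, against 35.2% of all tested genes. With all 6 libraries and without that scaling, 48% of all tested genes were above 0. Prkaca, the catalytic subunit of protein kinase A, which phosphorylates GluA1, had the smallest unadjusted limma p of all the pathway genes, 0.065. Prkaca stood at 69.5, 53.3 and 51.5 rescaled CPM in the control libraries and at 62.1, 129 and 113 in the cKO libraries, with cKO replicate 1 inside the control range and the other two above it. Its log2 fold change was 0.74 (SE 0.36). Ppp3ca and Ppp3r1, the catalytic and regulatory subunits of calcineurin, had log2 fold changes of 0.40 (SE 0.45) and 0.28 (SE 0.46). For Adarb1, the editing enzyme, the log2 fold change was 0.08 (SE 0.56). Editing itself cannot be read from gene totals.

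Kainate and delta receptors, the relatives of the AMPA receptor, had 9 tested members, with 3 above and 6 below 0 and 0 called, and a median of -0.08. The count above 0 was 6 without cKO replicate 1, against 48.2% of all tested genes. Without cKO replicate 2 it was 5, against 54%. It was 5 without control replicate 3 and 2 without cKO replicate 3, where the medians of all tested genes were 0.00065 and -0.06. With edgeR and with DESeq2 it was 5, against 51.4% and 49.8% of all tested genes. Scaled to the pan-neuronal markers it was 2, against 35.2%. Grik4, a high-affinity kainate subunit, was at 25.9 ± 7.09 and 50.2 ± 26.5 (log2 fold change 0.84, SE 0.45), with cKO replicate 2 highest at 80.2. Grik5, of the same class, had a log2 fold change of 0.39 (SE 0.46), Grik2 of -0.21 (SE 0.29) and Neto1, a kainate receptor auxiliary protein, of -0.22 (SE 0.38).

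**Figure D5:**
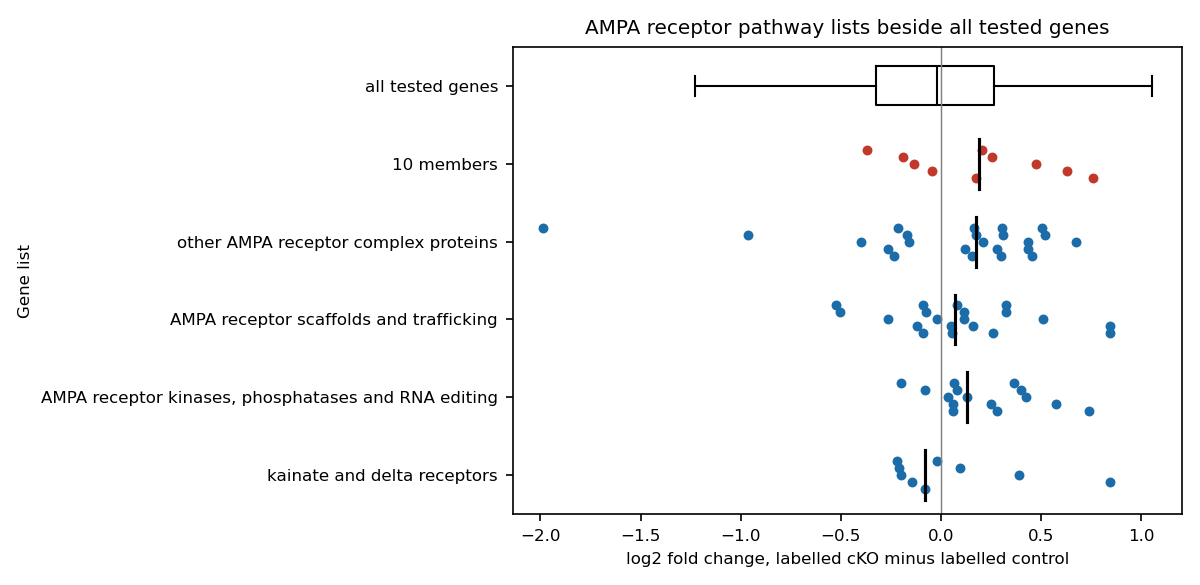
Log2 fold change (horizontal axis) of the 10 receptor genes and of each tested gene of the 4 pathway lists (points, with the list median as a bar), under a box of all 14796 tested genes (box, quartiles at -0.32 and 0.27; whiskers, the central 95%, from -1.23 to 1.05). Except Cacng5, every point lies within the whiskers.

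Genes whose profile over the 6 libraries was among the nearest to the mean profile of the 10 were, among 10285 tested genes with a mean of at least 10, Atp6v0a1, Dlg4, Ap1b1 and Fam160a2. Their root mean square differences from that profile ran from 0.0695 to 0.106 on the log2 scale. Atp6v0a1 encodes a subunit of the vacuolar proton pump and Ap1b1 a clathrin adaptor subunit. Dlg4, which encodes PSD-95, the scaffold that TARPs bind, was measured at 75.8, 132 and 90.7 rescaled CPM in the control libraries and at 56.8, 131 and 156 in the cKO libraries. In all 4 genes cKO replicate 1 was the lowest and cKO replicate 3 the highest library.

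Whether the counting used strand is not stated. In mm10, 323 exon bases of Cacng2 and 14 of Cnih2 are shared with a gene on the other strand, and reads there cannot be told apart. The other 8 genes share 0 exon bases with the opposite strand. With a gene on the same strand, Gria2 shares 111 exon bases, Cacng8 91, Gria3 85 and Gria4 19. Among the pathway genes named above, such sharing was largest for Prrt2, at 2918 of 3159 exon bases. Pick1 was next, at 1222 of 6573.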

How the data were processed

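The members and the gene lists were chosen with earlier results of these data known, and gene lists are used as descriptions. Per the submitters' processing notes, reads were handled with Trimmomatic, HISAT2, featureCounts and edgeR on mm10. Their versions, the strand setting and the counting annotation, all not given in the sources used here, are left out. The deposited values are a normalized signal, CPM rescaled per library (column totals 961962 to 1027958). Plain CPM had been assumed when the tests were planned, and the same test suits both. Every value lay within 0.001 of a whole multiple of 1 read, so reads were recovered (100% of values).

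The test was limma 3.58.1 (R 4.3.3, trend on) applied to log2(value + 1) of the 14796 genes that reached 1 in 3 or more libraries. This scale understates changes of low genes. P-values were adjusted with Benjamini-Hochberg over all tested genes at 0.05. The procedure was tested on simulated data. On recovered reads edgeR 4.0.16 and DESeq2 1.42.0 were alternatives, beside other pseudocounts (0.1 and 5), filters (none, 5), scalings, a replicate block and left-out libraries. P-values measure the spread between these libraries, which may be technical. Poisson intervals cover counting error only, since reads may be copies of fewer molecules. Exon lengths and positions are from GENCODE vM21 (mm10). Named are the 10 members, 4 genes per pathway list by smallest unadjusted p, the 5 genes nearest in profile, and Padi4. Of the genes this rule names, 2 are not reported here. Adarb1 was named outside that rule for its role, after its values were seen. Of the listed genes, Epb41l1 is not analysed here.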

Additional observations from a re-analysis of the deposited data

How the results depend on the processing

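No AMPA receptor gene and no gene of the 4 pathway lists was called under any alternative or without any 1 library (0 in each), and limma and edgeR called 0 of all tested genes where DESeq2 called 1. The count of positive log2 fold changes among the 10 genes was 6 to 8 under the other alternatives and 4 to 9 without 1 library, and their median ran from 0.03 to 0.28 and from -0.03 to 0.64. Without 1 library the log2 fold change ran from 0.27 to 1.53 for Gria1, -0.0037 to 0.57 for Gria2, -0.15 to 0.53 for Gria3, -0.17 to 0.16 for Gria4, -0.79 to 0.72 for Cacng2, -0.76 to 0.42 for Cacng3, 0.06 to 0.98 for Cacng8, 0.23 to 1.06 for Cnih2, -0.37 to 0.87 for Cnih3 and -0.95 to 0.023 for Shisa9. Signs also turned without both libraries numbered 2 for Gria4 (0.073), Cacng3 (0.38) and Cnih3 (-0.40), with edgeR for Cacng2 (0.19) and Cacng3 (0.03), and with DESeq2 for Cacng2 (0.17). For these the cause was not tested. The difference in Gria2 share was -1.90 percentage points, -3.76 to -0.78 without 1 library, -1.49 as a raw share, -1.35 per kb of the longest coding transcript (chosen after the data were seen) and -0.38 without both libraries numbered 2. With the replicate block it was -1.90 (exact p = 0.5). Replicate numbers are not stated to pair the samples. Across genes, deviations from the group mean were correlated between same-numbered libraries at r of 0.491, 0.301 and 0.034. Between differently numbered libraries r ran from -0.403 to 0.028, so the pair numbered 3 stood close to the highest of these. The block called 0 genes. With it, 110 genes higher and 197 lower had an unadjusted limma p under 0.05, against 50 and 76 without it. Of the 10 genes 0 were among them, and the unadjusted limma p of Gria1 was 0.072 with the block and 0.21 without. Read depth limits Cnih2 and Cacng8 most, at 51 and 60 reads in control replicate 1.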
